A study of Sus scrofa with 6 samples.

Results

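Cytokine, chemokine and NF-kappaB genes were followed in cultured porcine immature Sertoli cells, as a list of 50 gene symbols that covers secreted cytokines, their receptors, the NF-kappaB subunits and the inhibitors that NF-kappaB itself induces. The genes were chosen by name with earlier results of these data known, so the list is not independent evidence. Of the 50, 42 had a row among the 17670 genes of the count table. IL1B, IL1RN, CXCL12, CXCL16, CCL20, CX3CL1, TNF and TNFSF10 had no row with that symbol and were not analysed here. IL33, CXCL10, CXCL14, CCL28, CSF2 and PTGS2 had a row but too few counts for the test, so 36 genes were tested.

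The cells came from fetal pig testis at 80 to 90 days of gestation and were kept in culture with 10% serum. The 3 control libraries and the 3 libraries from cells given 250 µM L-ascorbic acid 2-phosphate (AA2P, a stable vitamin C) after 6 h of culture were compared. No genetic change was described in either group. The sources used here do not give the length of the treatment or say what the controls received. Nothing said that the libraries of a group were separate cultures or animals, so the spread behind each p-value is that among these libraries and may be technical.

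NF-kappaB is a family of dimeric transcription factors held in the cytoplasm by inhibitor proteins of the IkappaB family. Signals such as interleukin 1, tumour necrosis factor and bacterial products lead to removal of the inhibitor. NF-kappaB then enters the nucleus and switches on chemokines, cytokines and adhesion molecules together with its own inhibitors, among them NFKBIA and TNFAIP3. Interleukin 6, interleukin 11 and leukaemia inhibitory factor signal through a shared receptor chain, gp130 (gene IL6ST), to the transcription factor STAT3, whose feedback inhibitor is SOCS3. In the testis, interleukin 1 alpha and interleukin 6 are known as products of Sertoli cells.

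Library totals ran from 18747307 to 23521291 read counts, and levels are given as CPM (read counts scaled to a common library size, with TMM factors). A level of 3 counts, the limit that a count of 0 allows, was 0.123 to 0.165 CPM and covers counting error only. AA2P library 3 stood apart from libraries 1 and 2 on the side of the controls: its log2 CPM correlated with the control libraries at 0.970 on average across genes, against 0.959 and 0.961. Scaling by library totals in place of TMM moved the median log2 fold change of all genes by 0.17. Of the Sertoli cell markers looked for, AMH was at 36.4 ± 1.52 CPM in controls and 34.4 ± 2.35 CPM with AA2P (SD, n = 3), and SOX9 was at 11.6 ± 0.647 and 2.22 ± 0.459 CPM. INHA and DHH had no more than 3 counts in any library, NR5A1 had 0 to 5, and GATA4, DMRT1, FSHR, CLDN11 and SOX8 had no row. Of 16 Sertoli cell markers 8 could be tested, of which 5 fell and 2 rose, and the 11 with a row summed to 4529 to 4859 CPM in controls and 1405 to 1974 CPM with AA2P. Of 12 tubular epithelium markers 11 were tested, of which 10 rose and 1 fell, and their summed level was 464 to 523 CPM in controls and 1257 to 1617 CPM with AA2P. The part of these shifts in the results below was not tested.

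Most of the secreted signals and several NF-kappaB inhibitors were lower with AA2P. The receptor genes went both ways: IL6R, LIFR and OSMR were higher, and IL1R1, IL4R and, by a small amount, IL6ST were lower. Of the 36 tested genes, 24 fell and 5 rose at an adjusted p of 0.05 in edgeR's quasi-likelihood test. Among all 12701 tested genes 26.1% fell and 26.0% rose, 52.1% together, so a call alone says little here. By size, 11 of the 36 fell at least 2-fold, against 3.48% of all tested genes. The median log2 fold change of the 36 was -0.63, and that of all tested genes was 0.00. In 30 of the 36 every AA2P library lay on the same side of every control, against 59.3% of all tested genes. CCL2 reached the filter on low counts through the control libraries alone, so these counts describe the genes that passed and not the whole list. The list was also chosen with earlier results of these data known, so its contrasts with all tested genes are descriptive only.

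Scaling by library totals left 22 of the genes lower and 6 higher, where 14.4% of all tested genes were lower and 45.0% higher. Without AA2P library 3, 26 genes were lower, 4 higher and 13 at least 2-fold lower. Only 3 genes were called higher without control library 1, and also without AA2P library 2.

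**Figure D1:**
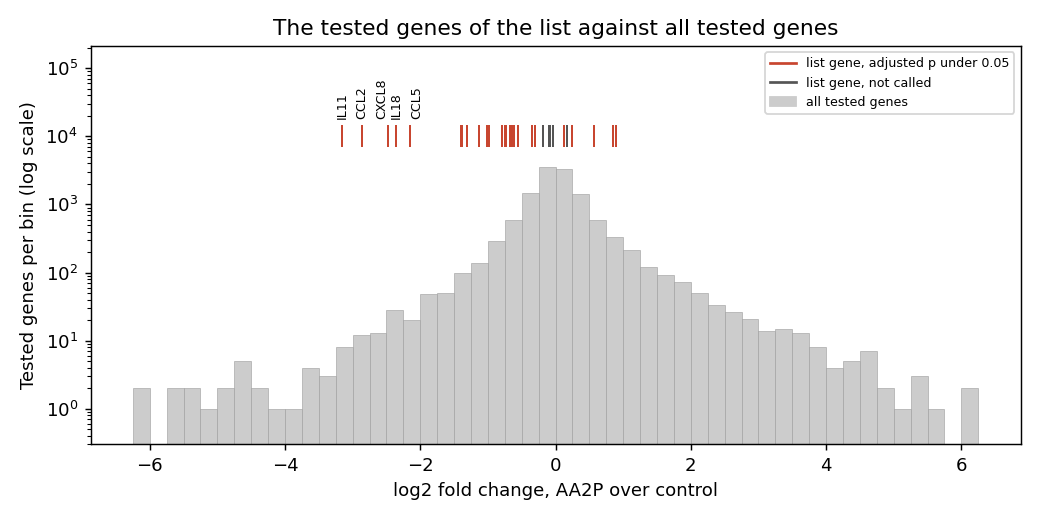
Log2 fold change (AA2P over control, x axis) of all 12701 tested genes as a histogram with a log count axis, and of the 36 tested cytokine and NF-kappaB genes as ticks above it, red where called and grey where not. The outermost bars also hold the genes beyond the axis, and IL11, CCL2, CXCL8, IL18 and CCL5 lie in the left tail of the histogram.

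Of the 36 genes, 5 lay among the lowest 1% of all tested genes by log2 fold change, and 12 among the lowest 5%. IL11 ranked 28 from the bottom, CCL2 ranked 39, CXCL8 ranked 63, IL18 ranked 77 and CCL5 ranked 94. All of these encode secreted ligands. CCL2 reached the filter on low counts through the control libraries alone, so its place in this tail is no added support. At the other end, no tested gene of the list rose as steeply as these fell, and the largest fitted increases were those of IL15 (1.86-fold) and IL6R (1.80-fold).

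**Figure D2:**
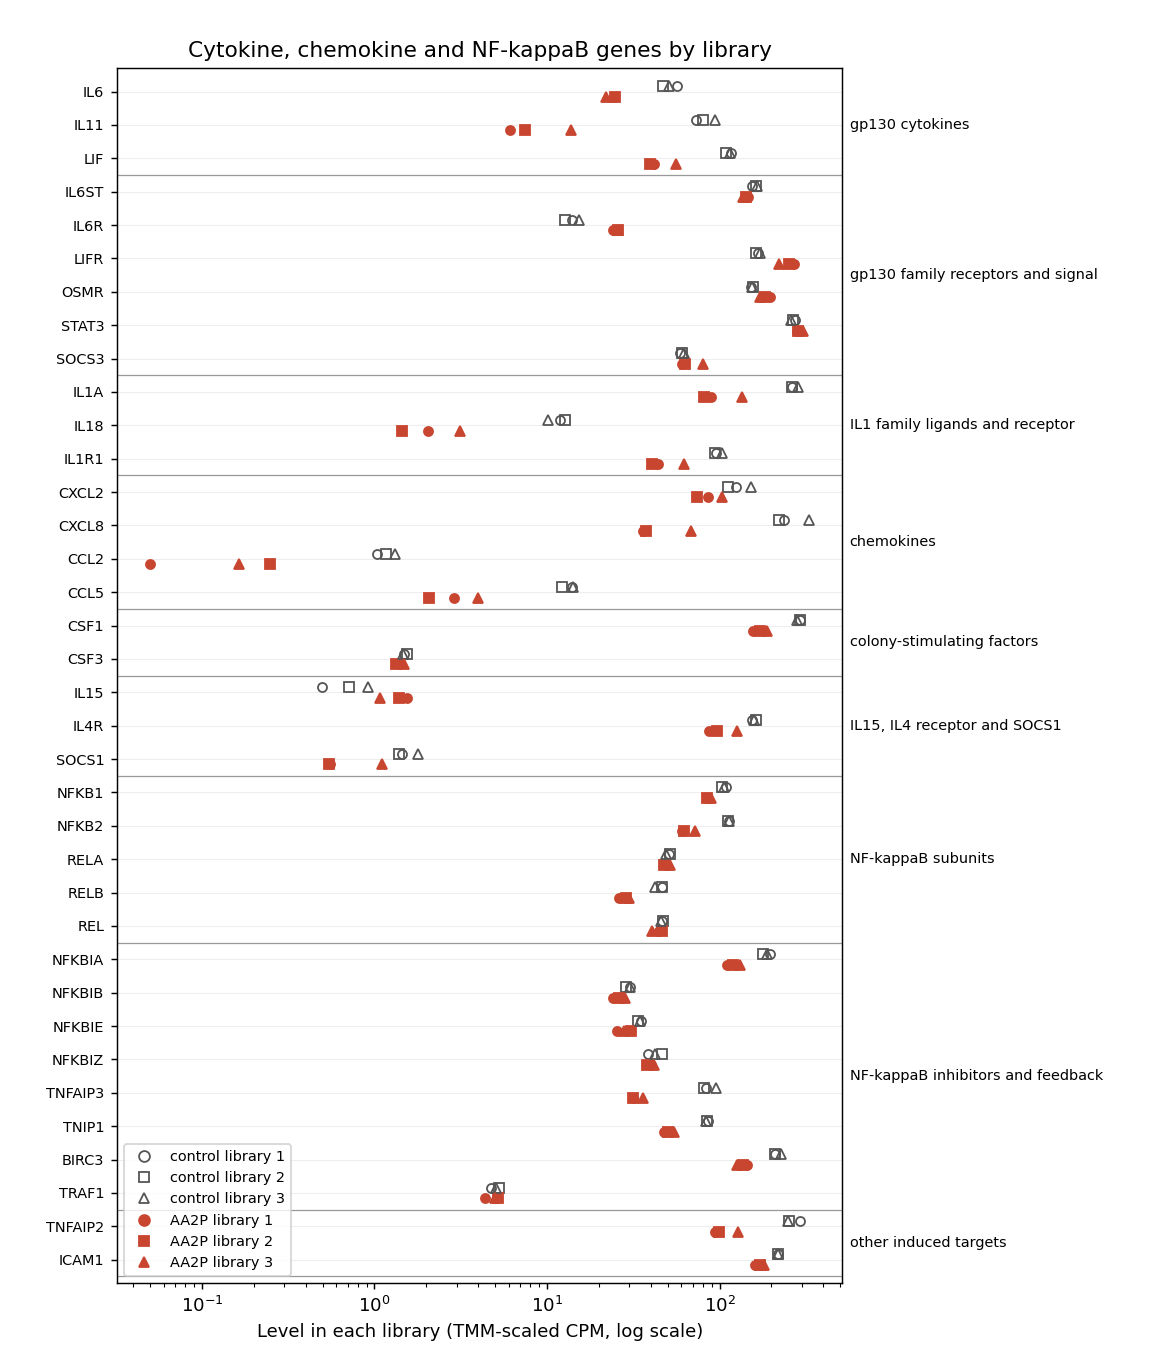
Level of the 36 tested genes in each of the 6 libraries, in TMM-scaled CPM on a log axis, with control libraries as open grey symbols and AA2P libraries as filled red ones, grouped by role. Symbol shape gives the library number, and the triangles of AA2P library 3 often stand between the other AA2P libraries and the controls, as for IL11, LIF, IL1A and CXCL8.

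The 3 gp130 cytokines fell. IL11, a cytokine made by stromal and epithelial cells, was at 73.1, 80.2 and 94.5 CPM in control libraries 1 to 3 and at 6.11, 7.43 and 13.8 CPM in AA2P libraries 1 to 3. Every AA2P library lay far below every control, and library 3 was the highest of the AA2P group. The log2 fold change was -3.15 with a standard error of 0.18 (edgeR adjusted p = 3.6e-10). Without AA2P library 3 it was -3.60.

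LIF, which maintains stem cells in several tissues, was at 117, 109 and 115 CPM in controls and at 41.8, 39.4 and 55.6 CPM with AA2P. The groups did not overlap, and library 3 was again the highest of the AA2P libraries. The decrease was 2.48-fold, with an edgeR adjusted p of 6e-09. IL6, an inducer of the acute phase response, was at 56.7, 47.3 and 51.0 CPM in controls and at 24.5, 24.7 and 22.1 CPM with AA2P. Here library 3 did not stand nearer the controls but was the lowest of the 6. IL6 fell by 1.13 on the log2 scale with a standard error of 0.08 (edgeR adjusted p = 3.7e-09).

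IL6R, LIFR and OSMR moved the other way. IL6R, the specific receptor of interleukin 6, was at 13.9, 12.7 and 15.3 CPM in controls and at 24.2, 25.7 and 25.7 CPM with AA2P, with no overlap. It rose 1.80-fold, a log2 fold change of 0.85 with a standard error of 0.09 (edgeR adjusted p = 4.1e-07). LIFR, which pairs with gp130 to bind leukaemia inhibitory factor, was at 167, 163 and 172 CPM in controls and at 269, 254 and 219.8 CPM with AA2P. All AA2P libraries lay above all controls, and LIFR rose 1.48-fold (edgeR adjusted p = 1.6e-06). OSMR, the oncostatin M receptor chain, was at 153 to 156 CPM in controls and 172 to 195 CPM with AA2P, a rise of 1.19-fold with an edgeR adjusted p of 0.0009.

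The shared chain and the signal behind it changed little. IL6ST, which encodes gp130, was at 161 ± 6.06 CPM in controls and 141 ± 5.49 CPM with AA2P (SD, n = 3), a decrease of 1.14-fold (edgeR adjusted p = 0.00594). With library totals its log2 fold change was -0.02 and its adjusted p 0.792, the highest of a range from 0.00221 over 13 alternatives. STAT3, the transcription factor of the pathway, was at 274, 266 and 258 CPM in controls and at 282, 286 and 305 CPM with AA2P. The groups did not overlap, yet they differed by only 1.09-fold (edgeR adjusted p = 0.0372). STAT3 was called in 6 of 13 alternatives, with adjusted p-values from 6e-05 to 0.152, and it lost the call in 5 of the 6 fits that left out 1 library, the exception being the fit without AA2P library 1. SOCS3, the feedback inhibitor that STAT3 induces, was at 58.8, 60.9 and 62.3 CPM in controls and at 61.0, 63.5 and 79.9 CPM with AA2P. Only AA2P library 3 stood apart, and the log2 fold change of 0.17 did not pass (edgeR adjusted p = 0.0931). SOCS3 passed as higher with library totals, without the filter on low counts and without AA2P library 1, with adjusted p-values between 0.0017 and 0.585 over 13 alternatives.

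**Figure D3:**
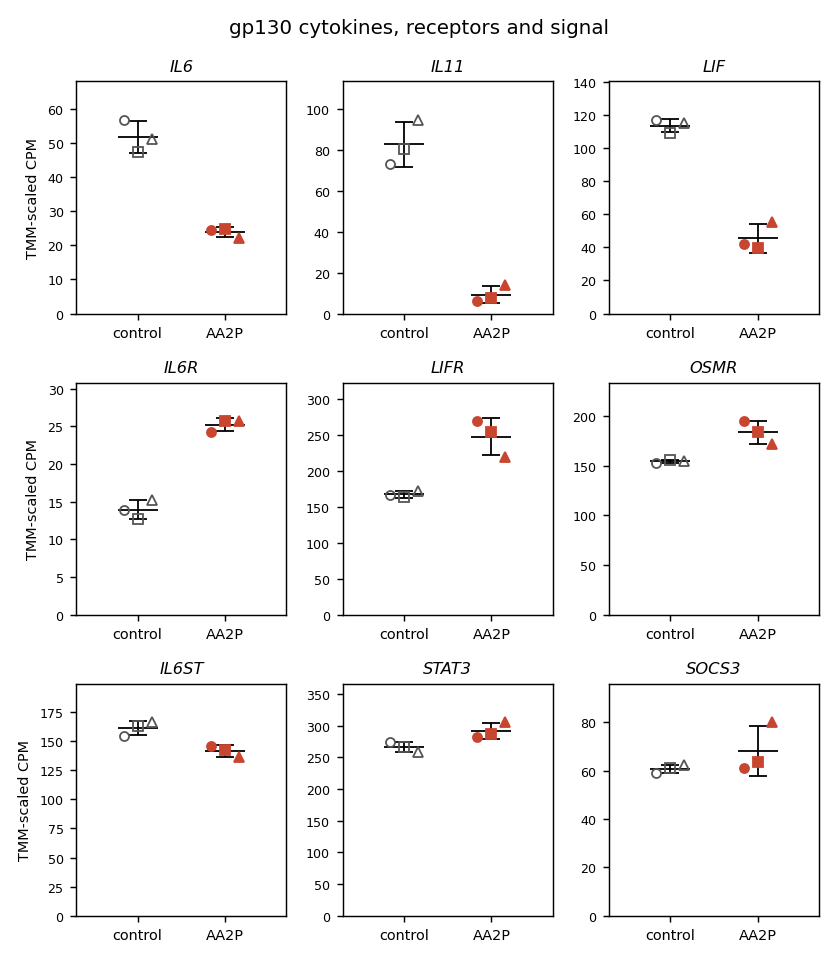
TMM-scaled CPM (y axis from 0) of the gp130 cytokines, their receptors, STAT3 and SOCS3 in the 3 control and 3 AA2P libraries, with the mean as a dash and the SD as bars. IL6, IL11 and LIF are lower with AA2P, IL6R and LIFR are higher, and IL6ST, STAT3 and SOCS3 lie close to their control levels.

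A wider list of gp130 and JAK-STAT genes, without the genes above, had 23 tested genes, of which 6 rose and 10 fell with a median log2 fold change of -0.06. Over all tested genes the shares were 26.0% higher and 26.1% lower, and the median was 0.00. Scaled by library totals, 8 genes of the list were higher and 8 lower and their median was 0.11, against 45.0% and 14.4% of all tested genes and a median of 0.17. IL13RA1, a chain of the interleukin 4 and 13 receptors, fell 1.89-fold, and IL27RA, a gp130 partner that binds interleukin 27, fell 1.44-fold. CLCF1, another gp130 ligand, fell 1.77-fold from 14.6 ± 0.723 to 8.21 ± 1.32 CPM (SD, n = 3). SOCS5, a SOCS family inhibitor, rose 1.31-fold.

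IL1A and IL18 of the interleukin 1 family fell, as did IL1R1, the receptor of interleukin 1 alpha. IL1A, an alarm signal released by stressed epithelia, was at 262, 262 and 286 CPM in controls and at 89.5, 81.1 and 135 CPM with AA2P. The groups did not overlap, and AA2P library 3 was again closest to the controls. IL1A fell by 1.40 on the log2 scale with a standard error of 0.13 (edgeR adjusted p = 9.1e-08), or by 1.66 without AA2P library 3. IL18, which drives interferon gamma production in lymphocytes, was at 11.9, 12.7 and 10.1 CPM in controls and at 2.05, 1.44 and 3.12 CPM with AA2P. It fell 5.13-fold, with no overlap and an edgeR adjusted p of 2.2e-08.

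IL33, an alarmin stored in the nucleus of barrier cells, had 15, 9 and 16 counts in the control libraries and 0 in each AA2P library. It did not pass the filter on low counts. Its control mean of 0.649 CPM was 4.62-fold above the limit of 3 counts per AA2P library. That ratio leaves out the error of the control counts. IL1R1, the receptor through which interleukin 1 alpha signals, was at 94.7 to 104 CPM in controls and at 44.0, 40.8 and 62.6 CPM with AA2P. It fell 1.99-fold with an edgeR adjusted p of 1.2e-06, so here ligand and receptor were both lower, unlike IL6 and LIF with their receptors.

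The 4 chemokines with enough counts were lower, though CCL2 had enough in the control libraries alone. CXCL8, or interleukin 8, which attracts neutrophils, was at 237, 221 and 332 CPM in controls and at 36.2, 37.6 and 67.9 CPM with AA2P. Even the highest AA2P library was far under the lowest control. The log2 fold change was -2.47 with a standard error of 0.19 (edgeR adjusted p = 1.2e-08), and it was -2.83 without AA2P library 3. CXCL2, a related neutrophil attractant, was at 124, 112 and 153 CPM in controls and at 85.2, 74.0 and 103 CPM with AA2P. The groups were separate but close, and the decrease was 1.48-fold (edgeR adjusted p = 0.00035). CXCL2 belongs to a family of similar neighbouring copies, and with the counting tool unknown its reads may be split among them.

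CCL5, an attractant of T cells and monocytes, was at 13.9, 12.3 and 14.1 CPM in controls and at 2.90, 2.08 and 3.98 CPM with AA2P. It fell 4.43-fold without overlap (edgeR adjusted p = 1.2e-08). CCL2, the main monocyte attractant, had 23, 21 and 27 counts in controls and 1, 5 and 4 with AA2P, so its log2 fold change of -2.86, with a standard error of 0.41, rests on few reads (edgeR adjusted p = 2.2e-05). The remaining chemokines were barely detected. CXCL10 had 2 counts in each control library and 1 to 3 with AA2P, CXCL14 had 3 to 5 and 1 to 2, and CCL28 had at most 1 count in any library. Differences in these genes were not detectable at this depth.

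Colony-stimulating factors differed from each other. CSF1, which supports macrophages, was at 291, 291 and 282 CPM in controls and at 157, 172 and 189 CPM with AA2P. It fell 1.67-fold with no overlap (edgeR adjusted p = 2.9e-08). CSF3, the granulocyte factor, was at 1.49, 1.54 and 1.46 CPM in controls and at 1.40, 1.34 and 1.48 CPM with AA2P, with overlapping groups and an edgeR adjusted p of 0.773. CSF2 had at most 2 counts in any library.

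In bulk RNA, fewer cells of a type and less RNA per cell cannot be told apart, and macrophages are a known source of these ligands. Of 12 macrophage and myeloid markers, 10 had a row and 7 were tested, of which 3 rose and 2 fell. Their summed level was 38.3 to 43.9 CPM in controls and 42.7 to 45.7 CPM with AA2P. CD86, a costimulatory molecule, made up most of that sum, at 28.5 ± 1.62 CPM in controls and 32.7 ± 1.04 CPM with AA2P (SD, n = 3). The others went both ways: the integrin chain ITGAM fell 4.20-fold from 6.05 ± 0.602 CPM and the adaptor TYROBP 5.25-fold from 1.59 ± 0.485 CPM, while AIF1 rose 7.09-fold to 5.16 ± 0.348 CPM. TYROBP reached the filter on low counts through the controls alone, and the part of these genes in the decreases of the ligands was not tested. The macrophage receptors CSF1R and CD163 had no more than 3 counts in any library, and PTPRC and ADGRE1 had no row. For lymphocyte markers, 5 of 9 had a row, CD3D and CD2 had no more than 3 counts in any library, and the sum was 2.20 to 3.06 CPM in controls and 6.82 to 7.81 CPM with AA2P. The endothelial list, with 4 of 8 markers, summed to 5.09 to 6.44 and 10.2 to 12.4 CPM.

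IL15, IL4R and SOCS1 complete the signalling genes. IL15, a growth factor of natural killer cells, was at 0.496, 0.716 and 0.922 CPM in controls and at 1.55, 1.39 and 1.07 CPM with AA2P. It was called higher (log2 fold change 0.90, standard error 0.30, edgeR adjusted p = 0.0177) on 11 to 31 counts a library. IL15 missed the threshold with DESeq2 and without control library 1, AA2P library 1 or AA2P library 2, with adjusted p-values from 0.00543 to 0.0985 over 13 alternatives. IL4R, the interleukin 4 receptor, was at 155 to 163 CPM in controls and at 86.9, 97.3 and 126 CPM with AA2P, a decrease of 1.53-fold (edgeR adjusted p = 3.2e-05). SOCS1, an inhibitor of JAK kinases, was at 1.44, 1.38 and 1.80 CPM in controls and at 0.550, 0.545 and 1.11 CPM with AA2P. It fell 2.03-fold (edgeR adjusted p = 0.00869), or 2.79-fold without AA2P library 3.

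The NF-kappaB subunits split into a group that fell and a pair that was not called. NFKB2, the precursor of p52, was at 113, 112 and 113 CPM in controls and at 60.4, 62.5 and 72.3 CPM with AA2P. RELB, the partner of p52 in the non-canonical pathway, was at 46.5, 46.2 and 42.4 CPM in controls and at 26.1, 28.7 and 29.7 CPM with AA2P. Both fell without overlap, NFKB2 1.73-fold (edgeR adjusted p = 2.5e-08) and RELB 1.60-fold (edgeR adjusted p = 4.7e-07). NFKB1, the precursor of p50, fell by a smaller fitted amount, from 107 ± 2.87 to 86.1 ± 2.26 CPM (SD, n = 3), a log2 fold change of -0.31 with a standard error of 0.05.

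RELA, the p65 subunit of the classical dimer, was at 50.8, 51.6 and 48.9 CPM in controls and at 48.7, 47.4 and 51.7 CPM with AA2P. The groups overlapped, and the log2 fold change was -0.03 with a standard error of 0.06 (edgeR adjusted p = 0.674). REL was at 46.1 to 47.2 CPM in controls and 40.8 to 46.3 CPM with AA2P (edgeR adjusted p = 0.261). RELA and REL were not called in any of 13 alternatives, and the sign of both turned positive with library totals.

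**Figure D4:**
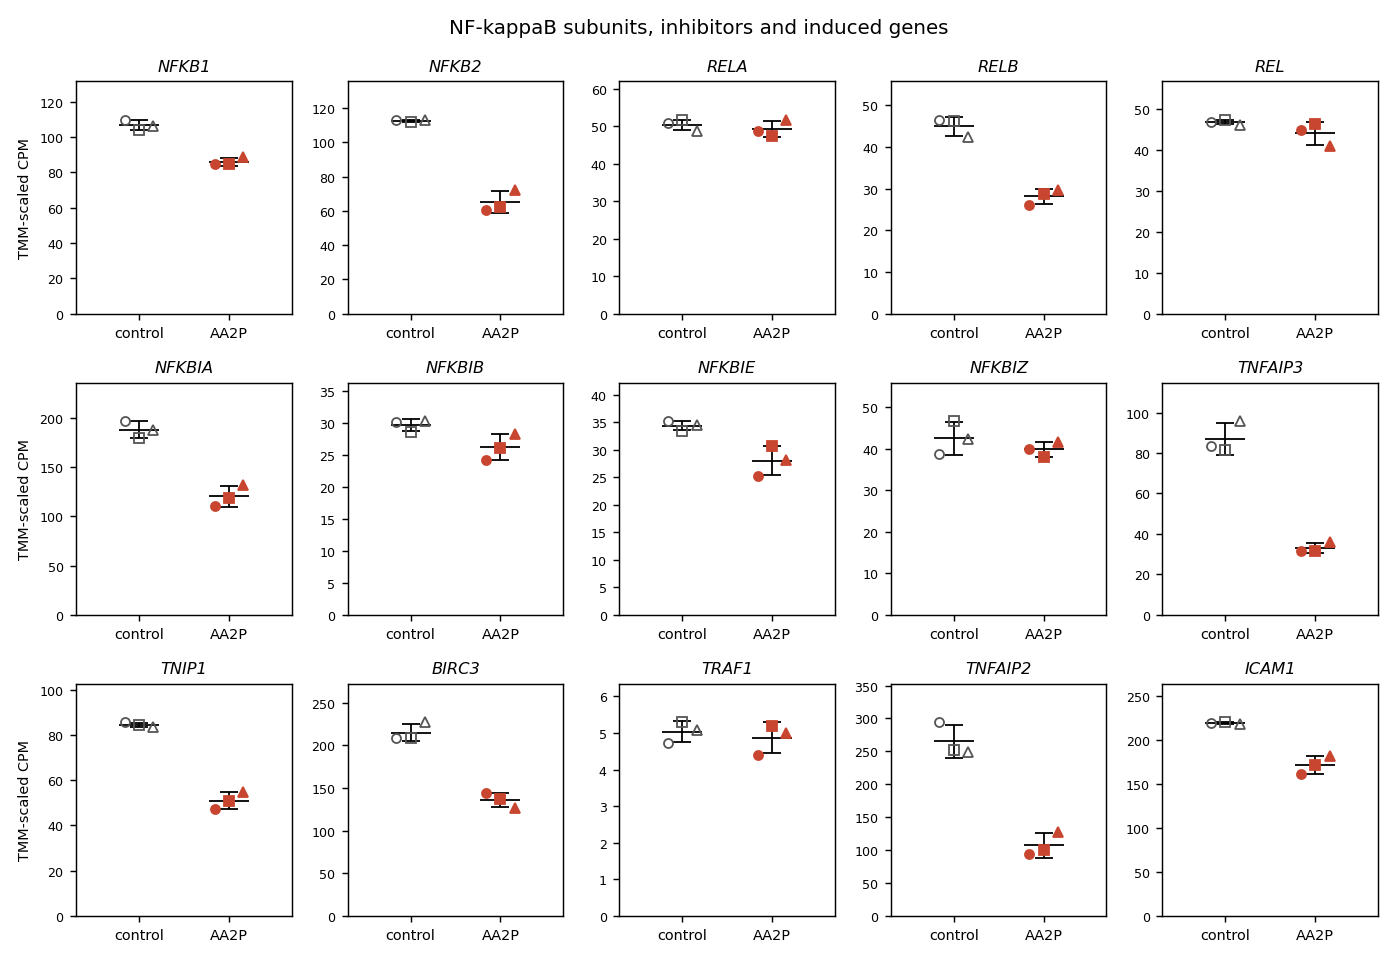
TMM-scaled CPM (y axis from 0) of NF-kappaB subunits, inhibitors and induced genes in the 3 control and 3 AA2P libraries, with the mean as a dash and the SD as bars. NFKB2, RELB, NFKBIA, TNFAIP3, TNIP1, BIRC3 and TNFAIP2 are lower with AA2P without overlap, while RELA, REL, NFKBIZ and TRAF1 overlap.

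Of the 8 inhibitor and feedback genes 5 fell, or 4 with library totals. TNFAIP3, or A20, which edits ubiquitin chains to stop signalling from tumour necrosis factor receptors, had the largest decrease of the 8. It was at 83.6, 81.4 and 95.7 CPM in controls and at 31.5, 31.6 and 36.0 CPM with AA2P. The AA2P libraries were tightly grouped far below the controls, and the log2 fold change was -1.39 with a standard error of 0.07 (edgeR adjusted p = 2.1e-10). TNIP1, which binds A20, was at 83.5 to 85.5 CPM in controls and at 47.4, 50.6 and 54.8 CPM with AA2P, a 1.66-fold decrease (edgeR adjusted p = 3.6e-08).

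NFKBIA, the inhibitor IkappaB alpha that NF-kappaB resynthesises after each activation, was at 197, 180 and 188 CPM in controls and at 111, 119 and 132 CPM with AA2P. It fell 1.56-fold with no overlap (edgeR adjusted p = 2.1e-07). The other IkappaB genes had smaller fitted changes. NFKBIE fell 1.23-fold (edgeR adjusted p = 0.00311), but with library totals its adjusted p was 0.15, the highest of a range from 0.00029 over 13 alternatives. NFKBIB was at 30.2, 28.6 and 30.3 CPM in controls and at 24.2, 26.1 and 28.3 CPM with AA2P. These groups did not overlap, yet the gene missed the threshold (edgeR adjusted p = 0.0541). NFKBIB passed as lower without AA2P library 3 and without the filter on low counts, with adjusted p-values from 0.0112 to 0.915 over 13 alternatives. NFKBIZ, an atypical nuclear IkappaB that promotes IL6 transcription, was at 38.7 to 46.6 CPM in controls and 37.9 to 41.5 CPM with AA2P (edgeR adjusted p = 0.308).

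BIRC3, an inhibitor of apoptosis and ubiquitin ligase of the same pathway, was at 209, 209 and 227 CPM in controls and at 144, 137 and 127 CPM with AA2P. It fell 1.58-fold, and library 3 was the lowest of the AA2P group. TRAF1, an adaptor of tumour necrosis factor receptors, was at 4.73 to 5.29 CPM in controls and 4.40 to 5.20 CPM with AA2P (edgeR adjusted p = 0.808).

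Among other induced genes, TNFAIP2 was at 294, 252 and 249 CPM in controls and at 93.6, 99.4 and 128 CPM with AA2P. It fell by 1.31 on the log2 scale with a standard error of 0.09 (edgeR adjusted p = 6.3e-09). ICAM1, an adhesion molecule for leukocytes, fell 1.28-fold from 219 ± 1.04 to 171 ± 10.7 CPM (SD, n = 3). PTGS2, the inducible cyclooxygenase, had 7, 5 and 8 counts in controls and 2, 1 and 8 with AA2P, and was too low to test.

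**Figure D5:**
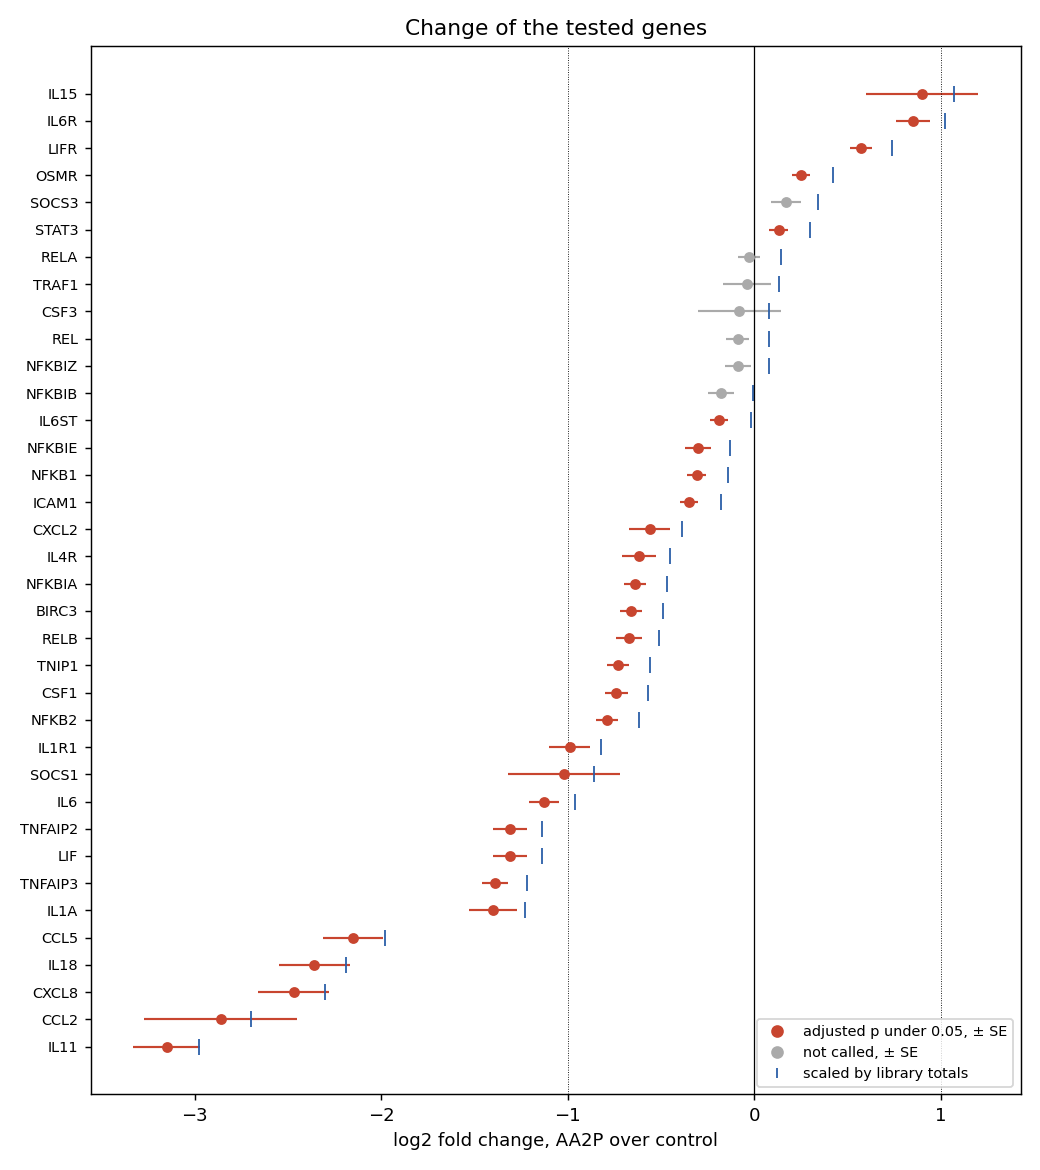
Log2 fold change (AA2P over control) of the 36 tested genes in order of size, with the standard error as bars, red where the adjusted p was under 0.05 and grey where it was not, and dotted lines at 2-fold. Blue ticks give the value scaled by library totals, which lie to the right of every point and cross zero for RELA, TRAF1, CSF3, REL and NFKBIZ.

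Further genes of the pathway were counted beside the same shares of all tested genes, 26.0% higher and 26.1% lower with TMM, and 45.0% and 14.4% with library totals. Of 33 tested kinases, adaptors and ubiquitin regulators of NF-kappaB, 2 rose and 12 fell with a median log2 fold change of -0.10, but 11 rose and 7 fell with a median of 0.06 when scaled by library totals. Called genes were no more frequent in that list than among all tested genes, of which 52.1% were called. The largest decreases among those named by p-value were in feedback genes. TNIP3, another A20-binding protein, fell 2.52-fold, and ZC3H12A, the ribonuclease regnase-1 that degrades cytokine messengers, fell 2.27-fold from 55.5 ± 3.62 to 24.2 ± 6.22 CPM (SD, n = 3). IKBKE, an inducible IkappaB kinase relative, fell 1.73-fold, and MAP3K8, a kinase held by the NFKB1 precursor, fell 1.50-fold.

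Of 13 tested receptors upstream of NF-kappaB, 2 rose and 7 fell with a median of -0.22, or 2 and 5 with a median of -0.05 when scaled by library totals. TLR2, a receptor of bacterial lipoproteins, fell from 13.3 ± 1.11 to 3.70 ± 1.14 CPM (SD, n = 3). CD40 and the interleukin 17 receptor IL17RA fell 1.47-fold and 1.40-fold. IL1RL1, the receptor of interleukin 33, rose 2.66-fold to 5.48 ± 1.63 CPM.

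Further NF-kappaB target genes and cytokines lay outside the list. Of 15 tested targets, 2 rose and 9 fell with a median of -0.29, or 4 and 8 with a median of -0.12 when scaled by library totals. LCN2, a siderophore-binding protein, fell 8.10-fold, the plasminogen activator PLAU fell 5.22-fold, and complement C3 and the hyaluronan receptor CD44 fell 3.61-fold and 2.17-fold. Of 11 other cytokines and chemokines, 2 rose and 4 fell with a median of -0.08, or 5 and 4 with a median of 0.09 when scaled by library totals. CCL17, a T cell attractant, had 20, 18 and 15 counts in controls and 0, 0 and 1 with AA2P, and it reached the filter on low counts through the controls alone, so that count describes only the genes that passed. IL34, the second ligand of the CSF1 receptor, fell 2.60-fold, while MIF and TNFSF9 fell 1.34-fold and 1.26-fold.

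The spread within the AA2P group had a common form. In 22 of the 29 called genes AA2P library 3 was the AA2P library nearest the control mean, against 54.8% of all called genes. IL6, IL6ST, IL6R, STAT3, CCL2, NFKBIE and BIRC3 were the exceptions.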

How the data were processed

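RNA sequencing of 6 libraries, 3 control and 3 AA2P, was analysed from the whole-number read counts per gene that the authors deposited, which are not normalized. The submitters' processing notes name bcl2fastq and HISAT2 2.0.5. The sources used here name no counting tool, strand setting, annotation or build, so no coordinates are printed, and overlapping or near-identical genes are uncertain. Symbols were found for 13141 of 17670 Ensembl identifiers in a table of gene names. Gene lengths were not used, so levels are not compared between genes.

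Counts were tested in R 4.3.3 with edgeR 4.0.16 (filterByExpr, TMM, group-only model, quasi-likelihood F test, Benjamini-Hochberg adjustment over 12701 genes, threshold 0.05). Each standard error is the size of the log2 fold change divided by the root of its F statistic. CPM values are TMM scaled. Replicates differed by more than counting noise (chi-square per degree of freedom 2.63 to 11.5). Each library counted once, though this spread does not show that they were separate cultures or animals. The procedure was run on simulated counts in which far fewer genes changed than were called here. That run could not test the choice of scaling.

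Genes and lists were chosen with earlier results of these data known, so no list is independent evidence. From each pathway list, up to 4 called genes with the smallest p were named. The alternatives were DESeq2 size factors, library totals, no filter, 1 CPM in 3 libraries, DESeq2 1.42.0, limma-voom (limma 3.58.1), a replicate block, each library left out, and an adjusted p of 0.01. Some genes of the lists are not reported here.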

Additional observations from a re-analysis of the deposited data

How the results depend on the processing

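Of the 29 called genes, 25 kept their direction and call in each of the 13 alternatives that tested them (CCL2 was not tested at 1 CPM in 3 libraries); the exceptions were IL6ST, STAT3, IL15 and NFKBIE, described above. With library totals, all tested genes split into 5720 higher and 1824 lower, 2 of the cytokine and NF-kappaB genes rose at least 2-fold, 11 kinase and adaptor genes rose and 7 fell, 4 other NF-kappaB targets rose and 5 other cytokines rose. The same scaling turned the uncalled log2 fold changes of CSF3, RELA, REL, NFKBIZ and TRAF1 to 0.08, 0.14, 0.08, 0.08 and 0.13, and with 1 library left out that of TRAF1 ran from -0.09 to 0.02, the higher value without AA2P library 1. At an adjusted p of 0.01, 3 genes of the list were higher and 1 of the other cytokines, and DESeq2 also called 1 of the latter higher. Leaving out each library in turn gave 3 to 5 genes higher, 0 to 1 higher by at least 2-fold, and 1 to 2 other cytokines higher. With the replicate number as a block, 24 genes fell and 4 rose, STAT3 losing its call (log2 fold change 0.13, edgeR adjusted p = 0.0695). Deviations of same-numbered libraries correlated at -0.039, -0.017 and -0.055, and those of differently numbered libraries at -0.065 to 0.105. With 3 libraries a group this gave no sign of pairing by number but cannot exclude it, so the block is only a check. Depth limited IL33, CCL2, CXCL10, CXCL14, CCL28, CSF2 and PTGS2, none of which had more than 27 counts in any library.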

Other observations

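A further ligand and receptor pair can be set beside IL6 with IL6R and LIF with LIFR. IL11RA and the kinases named here were chosen after their values were seen. IL11RA, the specific receptor of interleukin 11, was at 7.46 ± 0.515 CPM in controls and 9.60 ± 0.301 CPM with AA2P (SD, n = 3), a rise of 1.29-fold (edgeR adjusted p = 0.00889). In these pairs the transcripts of IL6, IL11 and LIF fell and those of IL6R, IL11RA and LIFR rose, while IL1A and IL1R1 both fell. IL33, with 0 counts in each AA2P library, was not tested, and its receptor IL1RL1 rose 2.66-fold (edgeR adjusted p = 4.1e-05). Among all tested genes 26.0% rose, or 45.0% with library totals. The kinases JAK1, JAK2 and TYK2 were 1.22-fold, 1.24-fold and 1.24-fold lower. When scaled by library totals their log2 fold changes were -0.11, -0.15 and -0.15, and JAK2 missed the threshold there.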
